A study of Mus musculus with 16 samples.

Results

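Open chromatin was described at 38 mouse genes whose products bind RNA and take part in its splicing: 12 SR and SR-like genes, 15 hnRNP genes, 6 genes of the core spliceosome and 5 others (Ddx5, Ddx17, Ewsr1, Rbm39 and Eif3d). ATAC-seq peaks of 16 libraries of haematopoietic stem cells (HSCs) were merged wherever they overlapped, and a region was kept when at least 2 libraries held a peak in it. A region belonged to the set when 1 of these genes was the nearest protein-coding gene within 100 kb of its median summit. This gave 74 of 33773 regions, at 34 of the 38 genes. The set was chosen by measured values: its genes had been put together because several held peak calls in young HSCs before transplantation that other libraries lacked. So the comparison of those libraries with the rest is given below as a description, with no test.

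Transposase inserts sequencing adapters into accessible DNA, and a peak marks a stretch with more insertions than its surroundings. Donors were B6 mice, the samples were labelled male, and the labels name no genetic alteration or drug in any group. Young donors were 8 to 12 weeks old and were pooled in groups of 3 to 4 per replicate, while an old replicate came from a single donor of 24 months. From each replicate 10000 HSCs were used at once (young pre, old pre), and 1000 were given with 300000 Sca-1-depleted BJ helper marrow cells to 5 lethally irradiated young BJ mice, whose pooled marrow yielded 10000 HSCs after 3 months (young post, old post). Each of the 4 groups had 4 libraries, numbered by donor set, and the young and old post groups both passed through irradiated young hosts. No label states a sort for donor cells after transplantation, so host or helper HSCs may be among the post cells. Libraries were transposed on 6 days: old pre 1 and 2 on day 1, young pre 1 to 3 with old pre 3 and 4 on day 2, young pre 4 on day 3, old post 1 and 2 on day 4, old post 3 with young post 1 and 2 on day 5, and old post 4 with young post 3 and 4 on day 6.

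The peak lists differed in length, and 3 stood apart as short: old pre 4 with 5687 peaks, young pre 4 with 9614 and old post 4 with 14008. The other 13 held 17299 to 32530. Read depth was not used here, so a region without a peak is described as not called, which does not mean closed. Of 15 HSC marker genes, 14 had regions (104 in all), of which 24 to 82 were called in a young pre library, 13 to 95 in old pre, 87 to 89 in young post and 32 to 87 in old post. The lymphocyte genes Cd79a, Ms4a1, Cd3e, Cd3g, Cd8a, Ncr1 and Rag1 had no region. Granulocyte and monocyte genes had 5 regions at 3 of 8 genes, called in 2 of 5 in each young pre library, 0 to 4 in old pre, 5 in each young post and 2 to 5 in old post. Erythroid genes had 7 regions at 5 of 8 genes and megakaryocyte genes 9 at 4 of 6. Stromal and endothelial genes had 14 regions at 5 of 6 genes. Of these 14, 0 to 11 were called in a young pre library, 0 to 12 in old pre, 11 to 13 in young post and 2 to 13 in old post. None of the marker regions of these cell types had the excess in young pre that is described below. In a bulk population, fewer cells with an open region and less opening per cell cannot be told apart.

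Splicing removes introns from new transcripts in the spliceosome, which is built from small nuclear ribonucleoproteins. SR proteins bind exons and mostly promote the use of nearby splice sites, while hnRNP proteins coat nascent RNA and often block such sites. Many SR and hnRNP genes control their own level through conserved alternative exons in their gene bodies, whose inclusion sends the transcript to decay. In the blood system these genes are best known because SF3B1, SRSF2 and U2AF1 are recurrently mutated in myelodysplastic syndromes, which arise in HSCs.

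At their transcription starts these genes were open in nearly every library. Of the 74 regions, 38 lay at a start that RefSeq lists, at 33 genes, and 25 of these were called in all 16 libraries. Over all places 27 of the 74 regions (36.5%) were called in all 16, against 15.6% of the 33773. The places differed, as 51.4% of member regions and 32.2% of all regions lay within 1 kb of a gene end. The share called in all 16 was not taken for starts of other genes. Whether it is particular to these genes was therefore not tested. Start regions called numbered 38, 36, 38 and 31 in young pre 1 to 4. The old pre libraries had 38, 38, 35 and 25. Each young post library had 38, and old post 1 to 4 had 38, 38, 38 and 30. The shortfalls were mainly in the short lists: of the 13 start regions not called everywhere, 5 lacked a peak in old pre 4 alone. The core spliceosome genes had 7 regions, 5 of them called in all 16 libraries, including the starts of Sf3b1, the branch-point-binding subunit of the U2 particle, U2af1, which reads the AG at the end of an intron, and Prpf8, the scaffold of the catalytic centre. Srsf2, an exon-binding SR protein, had 1 region, at its start, called in all 16.

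Starts were where these genes were open in nearly all libraries, so 5 promoters are shown as the sequence under such peaks, taken from the genes whose start regions ranked first by their difference between young pre and the other libraries. Each is the 250 bases before a RefSeq start (GRCm38.p6), written 5′ to 3′ on the strand of the gene. Capitals mark every match, on either strand, to the ETS core (CCGGAAG), the CCAAT box (spelled as its name), the TATA box (TATAAA) or the GC box (GGGCGG). No motif contains another.
Srsf11 promoter, chr3:158031749-158031998, minus strand: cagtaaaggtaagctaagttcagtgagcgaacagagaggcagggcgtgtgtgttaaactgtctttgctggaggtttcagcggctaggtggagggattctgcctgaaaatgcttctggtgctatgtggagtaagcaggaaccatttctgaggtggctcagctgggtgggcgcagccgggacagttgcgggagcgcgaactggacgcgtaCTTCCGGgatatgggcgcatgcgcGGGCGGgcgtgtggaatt
Eif3d promoter, chr15:77970825-77971074, minus strand: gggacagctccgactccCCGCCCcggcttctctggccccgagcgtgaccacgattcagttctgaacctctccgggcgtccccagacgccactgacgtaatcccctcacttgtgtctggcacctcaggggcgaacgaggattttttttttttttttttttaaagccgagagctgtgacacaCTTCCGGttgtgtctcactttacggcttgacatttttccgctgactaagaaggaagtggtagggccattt
Hnrnpd promoter, chr5:99978939-99979188, minus strand: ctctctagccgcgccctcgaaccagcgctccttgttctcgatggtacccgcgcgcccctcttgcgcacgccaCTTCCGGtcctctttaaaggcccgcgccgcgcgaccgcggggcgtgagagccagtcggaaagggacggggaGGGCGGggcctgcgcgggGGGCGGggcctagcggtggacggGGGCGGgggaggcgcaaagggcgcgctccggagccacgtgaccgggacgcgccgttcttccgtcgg
Srsf10 promoter, chr4:135855821-135856070, plus strand: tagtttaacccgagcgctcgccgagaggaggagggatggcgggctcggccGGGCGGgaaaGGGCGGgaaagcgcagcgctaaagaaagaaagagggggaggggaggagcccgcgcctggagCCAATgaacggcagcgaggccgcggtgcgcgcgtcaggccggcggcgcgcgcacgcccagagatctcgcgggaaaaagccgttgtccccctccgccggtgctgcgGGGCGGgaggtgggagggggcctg
Tra2a promoter, chr6:49264053-49264302, minus strand: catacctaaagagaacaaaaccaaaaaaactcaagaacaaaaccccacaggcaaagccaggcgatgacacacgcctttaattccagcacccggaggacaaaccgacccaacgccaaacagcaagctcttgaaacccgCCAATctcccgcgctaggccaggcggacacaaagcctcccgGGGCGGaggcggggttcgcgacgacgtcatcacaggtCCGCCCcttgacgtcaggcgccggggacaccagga

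All 5 promoters held a GC box, and none held a TATA box. The ETS core stood in those of Srsf11, Eif3d and Hnrnpd, and the CCAAT box in those of Srsf10 and Tra2a. The region over the Srsf11 promoter was called in 14 libraries, all but old pre 4 and old post 4, and those over the other 4 were called in 15, all but old pre 4. Over the 55 promoters that RefSeq lists for 37 of the genes, the ETS core was present in 27.3%, the GC box in 67.3%, the CCAAT box in 49.1% and the TATA box in 9.09%. Over all 32851 promoters of the same length the shares were 6.91%, 32.7%, 33.9% and 12.4%. The member promoters had a median GC content of 64.0% and 23 CG dinucleotides, against 52.4% and 6 over all promoters, and starts of 1 gene can overlap. A match is a run of letters and was not tied to binding here.

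The largest excesses in young pre lay at regions called in 2 to 6 libraries, none of which was at a start. For each region the share of the 4 young pre libraries with a call minus the share of the other 12 was taken, in percentage points. An excess of at least 50 points occurred at 9 of the 74 regions (12.2%), and over all regions the percentage was 0.423 (143 of 33773). Since this contrast chose the genes, nothing is read from that gap. Of the 38 start regions 6 had a higher and 5 a lower share in young pre. Each of the 38 was called in at least 11 libraries, so none could reach 50 points. The 9 were 6 of 13 regions in gene bodies, 2 of 6 at 3′ ends (summit within 1 kb of the end) and 1 of 7 downstream. Upstream it was 0 of 9. Members were also placed within genes, within 1 kb of either gene end, or outside genes. Here 6 of 20, 2 of 38 and 1 of 16 passed. Over all regions the percentages in these places were 0.587, 0.312 and 0.34. Of the 143 regions, 55.2% lay within genes, 23.8% at gene ends and 19.6% outside. By family the 9 were 4 of 31 SR regions, 2 of 29 hnRNP regions, 0 of 7 core regions and 3 of 7 of the others. Over the whole set 21 regions had a higher share in young pre, 22 a lower and 31 an equal one, with a median of 0 points against -8.33 over all regions.

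Most calls at the 9 regions were in 3 libraries. Young pre 1, 2 and 3 held 9, 8 and 8 of them and young pre 4 held none. Old pre 1 to 4 held 1, 3, 1 and 0, young post 1 to 4 held 1, 1, 2 and 0, and no old post library held any. Young pre 4 thus did not show the pattern of its group, and its list was the second shortest. Counted without young pre 4, the number was 9 again, while 1.10% of all regions then passed.

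**Figure D1:**
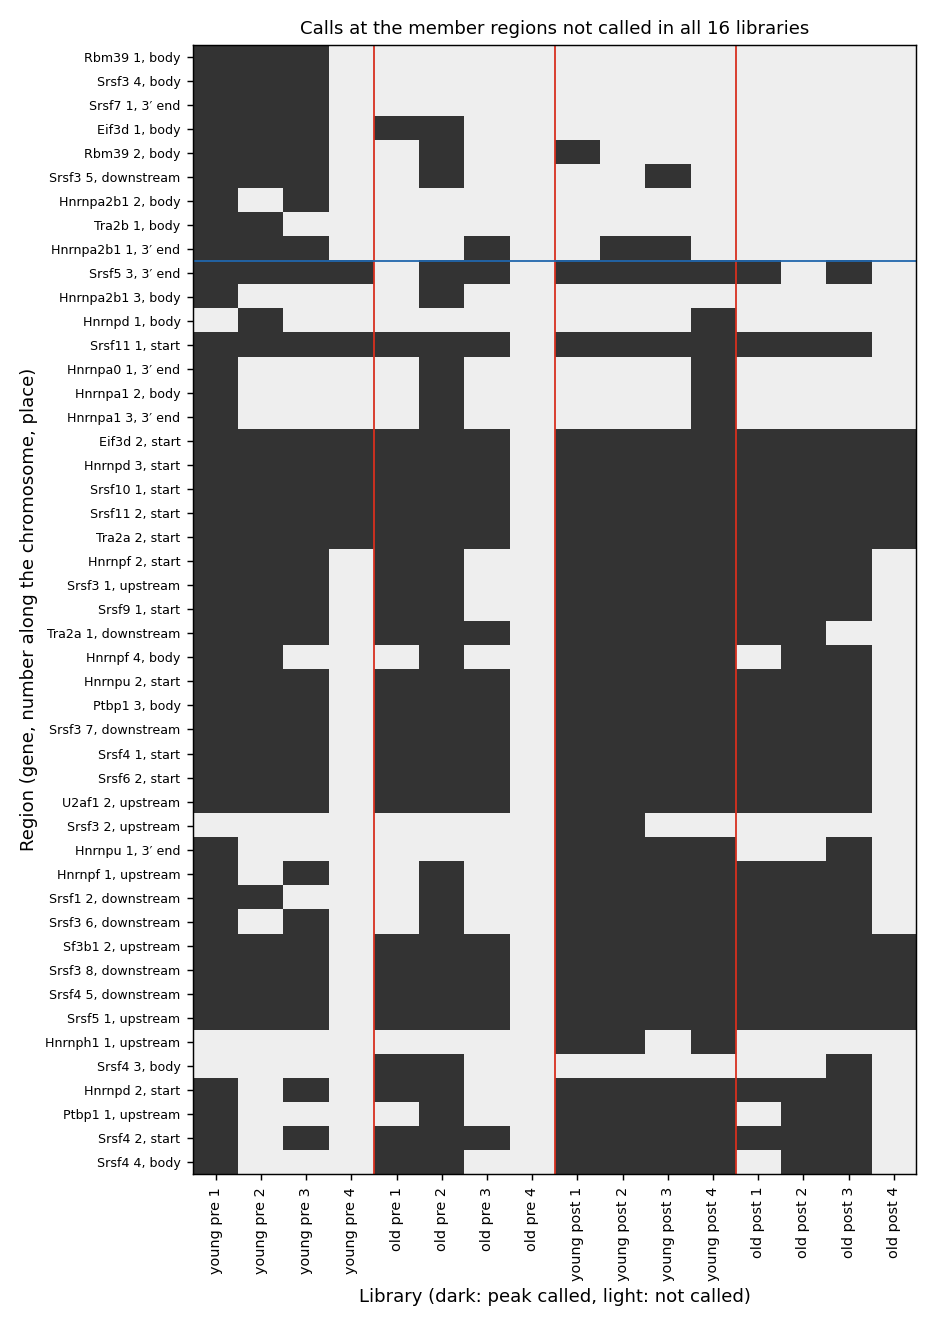
Calls at the 47 member regions that were not called in all 16 libraries, 1 row per region and 1 column per library, dark where a peak was called. Rows run from the largest to the smallest difference between young pre and the other libraries, and the blue line closes the 9 regions with an excess of at least 50 points. Above that line young pre 1 to 3 have 9, 8 and 8 dark cells and no other library more than 3. Over the whole plot the short lists have the fewest dark cells, 7 in young pre 4, 0 in old pre 4 and 9 in old post 4.

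Rbm39, an RNA-binding protein related to U2AF that joins the early spliceosome, had 2 of these regions inside its gene and 1 at its start. The first (chr2:156171327-156172886, mm10) was covered by 791, 1424 and 1393 bp of peak in young pre 1, 2 and 3 and by none in the other 13 libraries. The second (chr2:156177525-156178533) was covered by 771, 975 and 806 bp in the same 3 libraries, by 877 bp in old pre 2 and by 409 bp in young post 1. The start region of the gene was called in all 16 libraries, so the libraries differed in the body and not in whether the promoter was called.

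Srsf3, a small SR protein that controls splicing and export of messenger RNA, had the most regions of any member, 8. The body region (chr17:29036955-29038281) held 1279, 281 and 1326 bp of peak in young pre 1, 2 and 3 and none elsewhere. The region just downstream of the gene (chr17:29044082-29046691) held 2427, 427 and 2497 bp in these libraries, 358 bp in old pre 2 and 565 bp in young post 3. In both, young pre 1 and 3 were covered over most of the region and young pre 2 over a small piece of it. Of the other 6 regions, the start was called in all 16 libraries and 4 had a lower share in young pre, by 8.33 to 16.7 points.

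Srsf7, an SR protein with a zinc knuckle, had a region at its 3′ end (chr17:80198974-80202127) that was called in young pre 1, 2 and 3 alone, over 3120, 1869 and 1015 bp. Its start was called in all 16 libraries. A further stretch inside the gene (chr17:80202470-80204247) was called in young pre 1 only and so was not a member region.

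Hnrnpa2b1, an hnRNP that binds nascent transcripts and sorts RNAs, showed the pattern at 2 regions. Its 3′ end (chr6:51456888-51462078) held 4766, 2412 and 4979 bp of peak in young pre 1, 2 and 3, 1848 bp in old pre 3, and 1732 and 1185 bp in young post 2 and 3. Its body region (chr6:51465144-51466615) held 1472 bp in young pre 1 and 961 bp in young pre 3 and was not called in young pre 2. A further region of the gene, in the body at chr6:51466852-51467431, was called in young pre 1 and old pre 2. The 3′ end was covered furthest in young pre 1 to 3, and its summit lay 441 bp beyond the annotated gene.

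Tra2b, an SR-like splicing activator, had a body region (chr16:22256031-22257224) with 1194 bp in young pre 1 and 509 bp in young pre 2 and no call elsewhere. Eif3d, a subunit of the translation initiation factor eIF3 that contacts messenger RNA caps, had a narrow body region (chr15:77965249-77965753). It held 412, 430 and 387 bp in young pre 1, 2 and 3, and 379 and 449 bp in old pre 1 and 2. The Eif3d region was called in no post library of either age, and the Tra2b region in no library but these 2.

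Srsf5, an SR protein, stood next in rank with a difference of 33.3 points at a wide 3′ end region (chr12:80948061-80956398). All 4 young pre libraries had a call there, as did old pre 2 and 3, all 4 young post libraries and old post 1 and 3. Cover within it separated them more than the calls did: 8281, 6525, 8283 and 1013 bp in young pre 1 to 4, 3574 and 6770 bp in old pre 2 and 3, 614 to 3545 bp in young post, and 1377 and 1924 bp in old post 1 and 3. Old pre 3 lay above young pre 2 in this cover, so the groups overlapped.

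Of the 22 regions with a lower share in young pre, the 4 with the largest differences are given here. The largest was -41.7 points at a body region of Srsf4, an SR protein (chr4:131890791-131891174), called in young pre 1, old pre 1 and 2, every young post library and old post 2 and 3. A region 4306 bp upstream of Ptbp1, which binds pyrimidine tracts and represses exons, was called in young pre 1, old pre 2, every young post library and old post 2 and 3 (-33.3 points, chr10:79849989-79850394). A start region of Srsf4 (chr4:131873933-131874862) was called in young pre 1 and 3 and in 10 of the other 12 libraries (-33.3 points). Upstream of Hnrnph1, which binds G-rich RNA, a region (chr11:50371458-50371810) was called in young post 1, 2 and 4 alone, over 334 to 344 bp. The 9 libraries with a call in the Srsf4 body were those with the 9 longest lists, and the 8 with a call upstream of Ptbp1 those with the 8 longest. With lists shortened to 14008 peaks the Srsf4 start region changed sign, to 8.33 points.

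Wide regions were common in the set. Regions of at least 5000 bp made up 6 of the 74 (8.11%), against 127 of 33773 (0.376%). A width spans the peaks of all 16 lists, including the young pre peaks for which the genes were chosen, so nothing is read from this gap. At the 3′ end of Hnrnpa2b1, young pre 1 and 3 had 4766 and 4979 bp of peak and libraries outside young pre at most 1848 bp. They lay over Ddx5 (15231 bp), a DEAD-box RNA helicase, over the starts and bodies of Hnrnpab, Tra2b and Srsf3, and over the 3′ ends of Srsf5 and Hnrnpa2b1. The 4 at starts were called in all 16 libraries, that of Srsf5 in 12 and that of Hnrnpa2b1 in 6, and a call in so wide a region does not show how far into the gene the peaks reached.

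**Figure D2:**
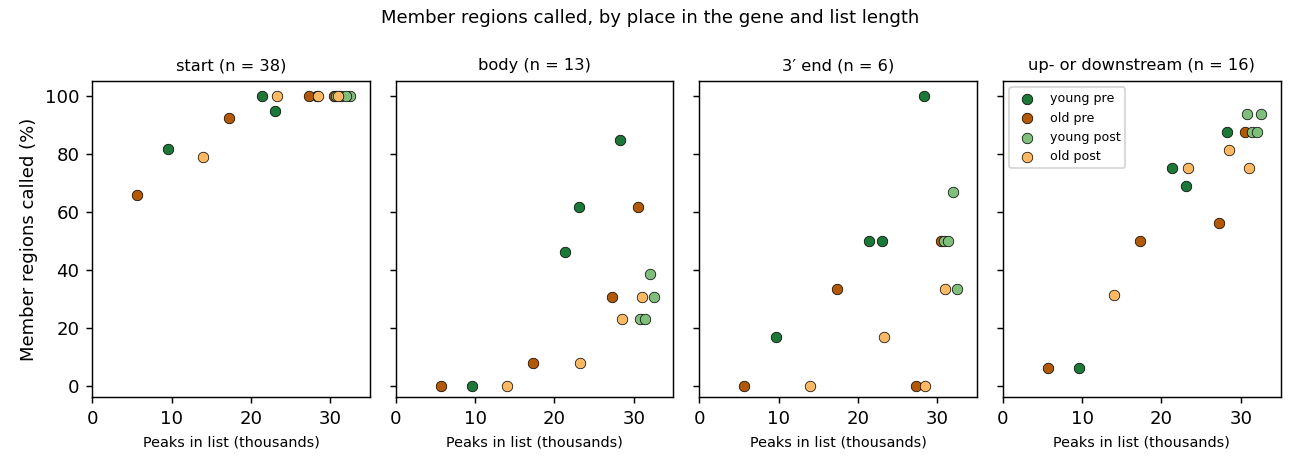
Percentage of member regions called in each library against the number of peaks in its list, in 4 panels by place in the gene, with 1 point per library coloured by group. Start regions were called in nearly all long lists, whereas body regions were called more in young pre 1 to 3 (11, 8 and 6 of 13) and old pre 2 (8 of 13) than in the young post libraries (3 to 5 of 13), whose lists were longer. In Rbm39, Srsf3, Hnrnpa2b1 and Tra2b, 1 body region each was kept through calls in young pre alone. The contrast with young pre was thus partly built in, and nothing is read from it.

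The percentage of the gene body under a peak, counting bases of the gene more than 2 kb from any listed start, was therefore measured in each library. It could be computed for 37 of the 38 genes, of which 22 had a body peak in some library and 15 had none. This measure was chosen after the calls had been seen and uses the same peaks, so it describes the same contrast again. Young pre had a mean at least 5 points above the mean of each other group at 5 of the 22 genes (Hnrnpa2b1, Srsf5, Tra2b, Srsf3 and Srsf7), and over all genes with a body peak the percentage was 0.962 (45 of 4678). The 5 became 3 without young pre 1 (of 24 genes in all) and 9 without young pre 4 (of 81), so these 2 libraries weighed on the count. Covered bases were also compared between each of young pre 1 to 3 and the 12 libraries outside young pre. All 3 were above all 12 at 4 of the 22 member genes (Hnrnpab, Rbm39, Srsf3 and Tra2b). Over all genes with a body peak the percentage was 0.876 (41 of 4678).

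Body cover of Tra2b was 40.1, 25.0, 23.4 and 0% in young pre 1 to 4, against 0.37, 16.02, 8.79 and 0% in old pre 1 to 4. It was 7.84 to 9.59% in the young post libraries and 0, 0.43, 7.91 and 0% in old post 1 to 4. Young pre 1 to 3 were thus above every other library, and the group mean of 22.1% ± 16.5 (SD, n = 4) was spread widely by young pre 4.

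Body cover of Srsf3 was 39.6, 18.8, 32.9 and 0% in young pre 1 to 4, 13.5, 17.5, 17.5 and 0% in old pre, 16.8 to 17.5% in young post, and 2.22, 9.13, 14.1 and 0% in old post. Young pre 2 was just above the highest of the others, and young pre 1 and 3 were well clear of them.

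Body cover of Hnrnpab, an hnRNP of the A/B type, was 100, 90.5, 97.2 and 0% in young pre 1 to 4, against 6.67, 68.6, 62.8 and 0% in old pre 1 to 4. It was 71.9 to 78.7% in young post and 0, 6.69, 72.0 and 0% in old post. The gene has a single region, called in all 16 libraries, so only the reach of the peaks told the libraries apart. Its young pre mean (71.9% ± 48.1) was not above that of young post (74.9% ± 3.0, both SD, n = 4), again through young pre 4.

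Hnrnpa2b1 had body cover of 56.6, 4.16, 44.0 and 0% in young pre 1 to 4, 1.70, 9.55, 4.29 and 0% in old pre, at most 2.42% in young post and 0% in each old post library. Srsf7 had 74.5, 14.6, 0 and 0% in young pre and at most 1.26% in any other library. For both genes 1 or 2 libraries carried the young pre mean. Srsf5 had 96.6, 68.6, 92.9 and 0% in young pre and 7.71, 90.7, 88.9 and 0% in old pre, with 27.8 to 57.0% in young post and 0 to 31.7% in old post, so young pre and old pre overlapped at this gene. Ddx5 had 100% in 9 libraries of all 4 groups, and 0% in young pre 4 and old pre 4.

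**Figure D3:**
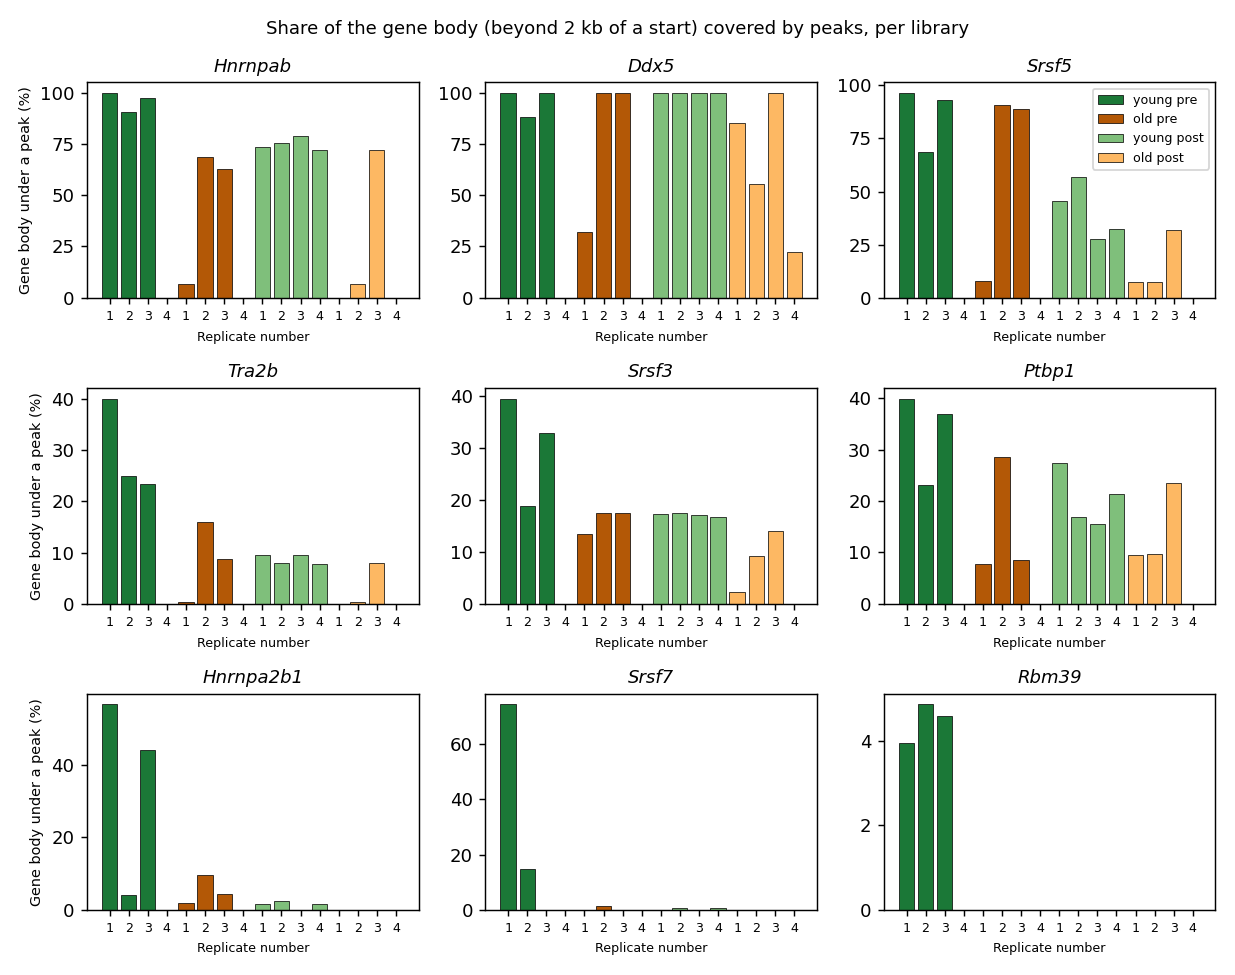
Percentage of the gene body (beyond 2 kb of any start) under a peak for 9 member genes, 1 bar per library, coloured by group and numbered by replicate; the vertical scales differ between genes. Bars of young pre 1 to 3 are the tallest for Tra2b, Srsf3, Hnrnpab and Rbm39, whereas Ddx5 and Srsf5 also have tall bars in old pre 2 and 3, and the fourth young pre and old pre libraries have none.

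Summed over the 37 gene bodies, cover was 8.14, 4.45, 5.36 and 0.037% in young pre 1 to 4, against 1.07, 4.50, 2.89 and 0.005% in old pre 1 to 4. It was 3.15 to 3.38% in young post and 1.09, 1.10, 3.01 and 0.22% in old post 1 to 4. To allow in part for differences in list length these were divided by the same percentage over all genes. The ratio was 13.0, 10.6, 14.4 and 0.48 in young pre, 2.02, 6.76, 12.0 and 0.13 in old pre, 4.66 to 4.96 in young post, and 2.92, 1.94, 4.59 and 1.33 in old post. Old pre 3, which was transposed on day 2 together with young pre 1 to 3, lay within their range. With every list shortened to at most 14008 peaks, old pre 3 had a ratio of 14.3 and young pre 1 to 3 had 17.3, 12.3 and 15.7, against 1.33 to 9.87 in the other libraries except the 2 shortest. The ratio thus still changed with list length, in young post 1 from 4.96 to 8.80. With full lists but without Ddx5, old pre 3 had 8.12, below young pre 1 to 3 with 11.6, 8.72 and 12.0. Old pre 2 came next with 5.39. The part of the transposition day was not tested: day 2 held only 2 old libraries, 1 of them with the shortest list, and the day and stage cannot be told apart for any post library. Of the 9 regions with the largest excess, old pre 3 held 1. These regions were defined by few calls in the libraries outside young pre, old pre 3 among them, so a low count there was built in. Over all 143 regions with such an excess, old pre 1 to 4 held 10, 18, 16 and 2.

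**Figure D4:**
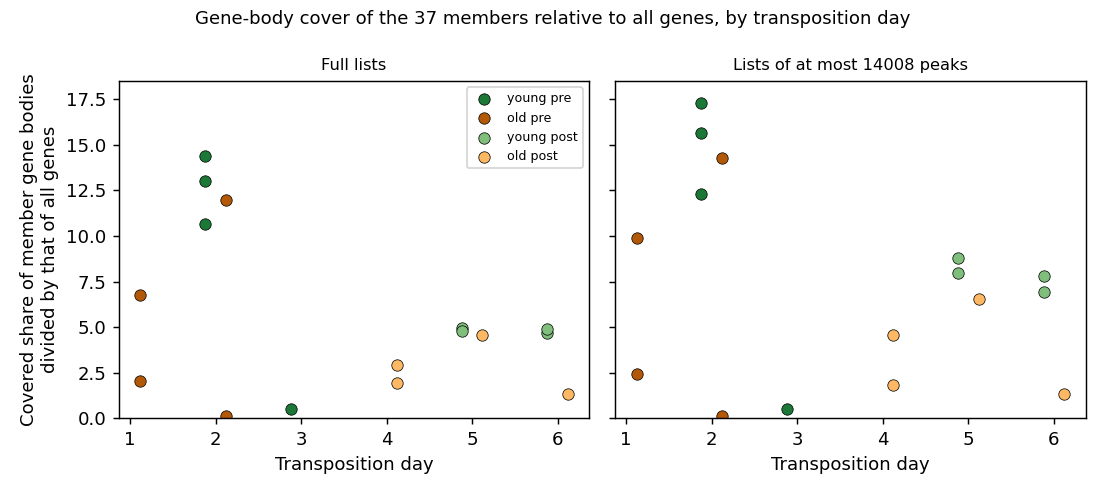
Share of the 37 member gene bodies under peaks divided by the share of all gene bodies, against the day of transposition, with 1 point per library (shifted slightly by age), for full lists and for lists of at most 14008 peaks. Young pre 1 to 3 and old pre 3, all of day 2, lie at 10.6 to 14.4 on the left and 12.3 to 17.3 on the right, above all other libraries.

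Genes of the immediate-early response, which dissociation of tissue and other stimuli switch on within minutes, moved with this pattern. Summed over a list of 23 such genes, as far as they have a body by this rule, cover was 47.8, 33.2, 37.2 and 5.96% in young pre 1 to 4, against 12.8, 23.9, 39.2 and 11.1% in old pre 1 to 4, with 22.8 to 24.4% in young post and 11.7 to 24.6% in old post. The same 4 libraries of day 2 were the highest here. Of 12 immediate-early genes with a body peak, 4 (Fosl2, Klf2, Maff and Nr4a1) passed the 5-point rule, against 0.962% of all genes with a body peak. Klf2 passed through young pre 1 alone, and Nr4a1 had 50.4% in old pre 3 against 49.7% in young pre 3. Of the 91 regions of the list, 5 (5.50%) had an excess of at least 50 points, against 0.423% of all regions. Their part in the result was not tested.

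Of 303 regions of related RNA-processing genes outside the set, 8 (2.64%) had an excess of at least 50 points in young pre. Among 75 genes of spliceosome particles, 60 had 91 regions, and 1 region passed 50 points, in the body of Sf1, the branch-point-binding protein, which was called in young pre 1 to 3 and young post 1 to 3. Among 90 splicing regulators, 83 had 196 regions and 7 passed. Clk1, a kinase of SR proteins, had 3 of the 7, and the first (chr1:58408213-58411958) was called in young pre 1 to 3 alone. Sfpq, which binds RNA in paraspeckles, had 2 in its body; 1 was called in young pre 1 to 3 alone (chr4:127030856-127033609) and the other also in old pre 3. A 223 bp region in Celf2 was also among them. The 12 genes of eIF3 other than Eif3d had 16 regions and none passed, although the body of Eif3g was covered by 81.2, 58.9 and 80.5% in young pre 1 to 3, 34.9% in old pre 3 and 0% in the other 12 libraries. The lowest differences, -66.7 points, were at Celf2, Cwc15 (2 regions), Mbnl1 and Rbfox2, each called in 0 of 4 young pre and 8 of 12 other libraries.

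The tests were kept to comparisons that no young pre library enters. The old pre and post calls were part of the rest against which the genes had been chosen, but the rule did not contrast these groups with each other. Old post was compared with old pre, and old post with young post, by an exact test of the number of calls that weights every library for its overall tendency to have calls, with Benjamini-Hochberg adjustment over the regions called in 3 to 5 of the 8 libraries. For old post against old pre, 0 of 13 member regions tested passed an adjusted p of 0.05, and over all 10384 regions the percentage was 0.00963 with old pre higher (1 region) and 0 with old post higher. At an unadjusted p under 0.05 there were 0 member regions and 506 of all. The smallest member p by this exact test was 0.0578 (adjusted 0.748), 7420 bp downstream of Tra2a, an SR-like splicing activator, at chr6:49236406-49236662, which was called in old pre 1 to 3 and old post 1 and 2. Regions near Hnrnpf, Srsf1 and Srsf3 each had calls in 3 of 4 old post against 1 of 4 old pre libraries, with an exact p of 0.194 and an adjusted p of 1.0. With limma 0 member regions were called as well. Fisher's exact test also called 0, but only 4 of all 10384 regions had an unadjusted p under 0.05 by it. That was too few for any region to pass, so no conclusion is drawn from that 0.

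For old post against young post only 2 member regions had 3 to 5 calls and 0 passed. Both already had the split furthest towards young post for their number of calls. With these library weights that split could not pass, so no conclusion is drawn from the 0. The upstream region of Hnrnph1 had no call in old post and calls in 3 of 4 young post libraries (exact p = 0.471), and the 3′ end of Hnrnpu, a nuclear matrix hnRNP, had calls in 1 of 4 old post against 4 of 4 young post libraries (exact p = 1.0), with an adjusted p of 1.0 for both. Over all 5163 regions the percentage was 0.465 with old post higher (24 regions) and 0 with young post higher, and by limma and by Fisher's exact test it was 0 regions. In the weighted test, regions split as these 2 members were could not have passed. At an unadjusted p under 0.05 there were 0 members and 95 of all. Most member regions could not enter because they were called in nearly all of the 8 libraries or in hardly any, and a p above the threshold does not show that the groups were alike. The lists of related genes had 0 calls in both comparisons.

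All 38 genes were in the gene table. Ewsr1, Sf3a1, Hnrnpc and Hnrnpk had no member region, since the region over the start of each, called in all 16 libraries, lay nearer to a neighbour (Rhbdd3, Ccdc157, Rpgrip1 and Rmi1). Just outside the limit of 2 libraries were 12 regions of member genes called in a single one, 8 in young pre 1, 1 in young pre 3 and 3 in old pre 2. Just inside it were 5 regions called in exactly 2. The farthest member region lay 30238 bp from its gene, Hnrnpu, and none was lost to the limit of 100 kb.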

How the data were processed

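The deposited files are 16 narrowPeak lists, 1 per library and without header. Per the submitters' processing notes, Genrich called the peaks on mm10, after Trim Galore and cutadapt had trimmed reads inspected in FastQC and MultiQC. No aligner or setting is given in the sources used here. Column 7 of the deposited lists is a score (the area of a peak, at least 200), column 5 a score derived from it, and columns 8 and 9 are the −log10 p and q of the summit in that library. These values carry no normalisation across libraries, and only where peaks lie and how far they reach was compared. No counts of reads were used, so the precision of a call is unknown and the number of libraries limits each comparison. Peaks on scaffolds (393 of 387029, 0.102%) were left out.

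Genes and starts came from RefSeq tables of GRCm38, the build of mm10, with 21631 protein-coding genes; 37 of 38 member genes had a listed start (not U2af2). Regions were placed by their median summit, at a start within 1 kb. Genome sequence was not used here, so sequence is given for promoters only. The members and gene lists were chosen with earlier results of these data known. Values of each library are given for the 12 member regions with the largest and the 4 with the smallest difference, and for 5 regions of related genes in each direction. Results of some listed genes are not reported here.

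Library weights of the exact test were fitted by conditional maximum likelihood over all regions, and p-values were two-sided; the test was tried on simulated data. By the series design, libraries of 1 age and number share donors before and after transplantation. Deviations from group means correlated by -0.083 to 0.039 between such old libraries, and by -0.079 to 0.005 between old and young post libraries of 1 number, which share only the number. Alternatives were Fisher's exact test, limma on presence minus expected presence, blocks, shortened lists, a stricter area, other merging and leaving out libraries. Python 3.11.15, numpy 2.4.6, pandas 2.3.3, R 4.3.3, limma 3.58.1 and matplotlib 3.10.9 were used.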

Additional observations from a re-analysis of the deposited data

Results flagged for a closer look

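For 68 groups of 4 libraries the highest or lowest value was compared with the rest by Dixon's criterion, unless all 4 values were equal, and 7 stood apart. Chance alone gives about 1 in 20 of the groups compared, which were fewer than 68. Of the 9 regions with an excess of at least 50 points, young pre 4 had 0 against 8 to 9 in young pre 1 to 3. In the same library body cover was 0% at Ddx5, against 88.3 to 100% in the others of its group, and 0% at Hnrnpab, against 90.5 to 100%. Srsf7 body cover was 1.26% in old pre 2 and 0% in the other old pre libraries. Start regions called numbered 30 in old post 4 and 38 in each of old post 1 to 3. Old post 3 had body cover of 72.0% at Hnrnpab, against 0 to 6.69% in its group, and of 7.91% at Tra2b, against 0 to 0.43%. Young pre 4 and old post 4 had the shortest lists of their groups and old post 3 the longest; the part of list length in these values was not tested.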

How the results depend on the processing

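The number of member regions with an excess of at least 50 points in young pre was 9. It was 5 of 51 with lists shortened to the third shortest (1.62% of all regions), 4 of 36 shortened to the shortest (2.80%), 2 of 38 at gene ends only (0.312% of all such regions), 4 of 56 with an area of at least 400 (0.296%), and 35 on day 2 alone, where 46.5% of all regions passed. Leaving out 1 library gave 7 to 9. The young pre mean of the member score (calls beyond those expected for regions as widely called) minus that of the rest was 13.0 points, 6.91 at gene ends, 8.41 with the stricter area, and 12.0 to 15.6 without 1 library. The 5 genes with more body cover became 3 to 9 without 1 library. Of 352 recomputed differences at single regions, 4 changed sign. With day 2 alone these were Srsf4 body (33.3), Ptbp1 upstream (33.3) and an Srsf4 start (16.7). After shortening to the third shortest list it was that start again (8.33). The cause was not tested. The 352 leave out settings in which a region was no longer found. With shortened lists or the stricter area this held for both Rbm39 regions and those in the bodies of Eif3d and Tra2b. It also held for the Hnrnpa2b1 body region called in young pre alone. Limits on membership, such as gene ends only, could not change a single difference.

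Without the young pre libraries, members had 0 calls in all 29 settings. In some settings the 0 was fixed beforehand, so the 29 are not read as 29 separate results. By Fisher's exact test of old post against old pre, only 4 of 10384 regions had an unadjusted p under 0.05, too few for any to pass. In the main test of old post against young post the 2 members tested were unable to pass towards young post. Leaving out 1 library left 1 or 2 members tested in that comparison. Over all regions, old post against old pre gave 1 call, 0 by Fisher's exact test, limma, shortened lists and the stricter area, and 0 to 4 without 1 library. Old post against young post gave 24 calls, 0 by Fisher's exact test, limma, shortened lists, the stricter area and days 5 and 6 alone, 3 over regions called in 2 to 6 libraries, and 0 to 20 without 1 library. With a replicate block the counts were 1 and 4, and for old against young post the pairing rests on a number alone. List length limits every call.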

Other observations

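The genes other than members that passed the 5-point rule for body cover in young pre numbered 40, and some were chosen here after their values were seen. Per1, a clock gene, had 100, 60.8 and 73.9% of its body covered in young pre 1 to 3 and 4.4 to 19.1% in the other 13 libraries. Ncl, which encodes nucleolin, had 16.4, 18.0 and 9.8% and 0% elsewhere. Gapdh, a glycolytic enzyme, had 100, 56.0 and 44.3%, against 22.1 to 48.3% in young post and 0 to 22.1% in old post, and so overlapped. Neighbours of members were among the 40. Polg2, beside Ddx5, had 23.8, 25.3 and 28.3% in young pre 1 to 3, 1.4% in old pre 3 and 0% elsewhere. Slc10a1, beside Srsf5, had 24.8, 16.1 and 24.9% in young pre 1 to 3, 15.0% in old pre 3 and 0% elsewhere. Mettl23, beside Srsf2, had 84.7, 97.9 and 78.0% in young pre 1 to 3, 51.2% in old pre 3, 30.3 and 44.5% in young post 2 and 3, and 0% elsewhere.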
